A study of Sus scrofa with 18 samples.

Results

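Genes of interferon, JAK-STAT and Toll-like receptor signalling were described in the liver of neonatal piglets on 3 diets. A gene entered when its symbol on the array began with IFI, IFN, ISG, OAS, GBP, JAK, SOCS, MYD88 or NFKB, began with IRF, STAT or TLR followed by a digit, or was MX1, MX2 or RSAD2. This gave 55 genes of the 6765 named on the array, carried by 85 probe sets. Each gene was read from the probe set with the highest mean log2 value over the 18 arrays.

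Male and female piglets stayed with the sow, or were put on a commercial dairy-based (cow's milk) or soy-based infant formula on postnatal day 2, and all livers were taken on postnatal day 21. The 6 groups of sex and diet held 3 arrays each, and each array carried liver RNA of 1 pool. The labels call the sow-reared group both sow-fed and breast fed, and it is called sow-fed here. No strain, genotype or drug is named, and how many piglets made a pool is not given in the sources used here, so the p-values measure the spread between pools. In whole liver, fewer cells of a type and less RNA per cell cannot be told apart.

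Interferons are secreted alarm signals of virus infection. Their receptors switch on kinases of the JAK family, which activate STAT proteins, and these enter the nucleus and start a large set of interferon-induced antiviral genes. Toll-like receptors sense microbial molecules, many of them through the adaptor MYD88, and act through NF-kappaB and the interferon regulatory factors (IRFs). SOCS proteins and the inhibitors of NF-kappaB damp these pathways. In the liver these genes are used by hepatocytes and by resident macrophages, the Kupffer cells, which meet microbial products in portal blood. In hepatocytes JAK and STAT proteins also carry growth hormone and interleukin-6 signals.

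By role, the 55 genes were 15 interferon-induced genes, 7 interferons and interferon receptors, 9 JAK and STAT genes, 4 SOCS genes, 6 IRF genes, 7 Toll-like receptor genes including MYD88, and 3 NF-kappaB family genes. A further 4 genes (ISG20L2, IRF2BP1, JAKMIP1 and NFKBIL1) matched by the letters of their symbol alone. Values are the deposited linear expression ratios, which compare arrays within a gene and not one gene with another. Of the 55 genes, 15 were dim, with a mean log2 ratio in the lowest 40% of all probe sets. The dim genes were GBP2, ISG20 and OAS1 among the interferon-induced genes, the interferons IFNA1, IFNB1, IFNG and IFN-DELTA-1, SOCS3, SOCS4 and SOCS6, TLR6, TLR8 and TLR9, NFKB1, and JAKMIP1. A dim probe set gives little information on whether a gene differed.

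The array-wide distribution differed by sex, and the diets were therefore compared within each sex. The 75th percentile of the ratios lay between 0.514 and 0.607 on the male arrays and between 0.888 and 0.949 on the female arrays, while the medians of the 18 arrays lay between 0.301 and 0.311. The bacterial hybridisation control transcripts were 9.21-fold higher on the male arrays, over 7 probe sets. Of 12 listed hepatocyte markers 11 were measured, and 0 of them were dim by their mean over the 18 arrays. That mean cannot show the tissue of a single array. One pool, female sow-fed pool 3, stood apart from its group in the interferon-induced genes. Results of the 55 genes that rest on it are given with and without it. A sex difference in level cannot be told apart from the difference between the arrays of the sexes.

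Female sow-fed pool 3 stood far above its group in more interferon-induced genes than any other pool did. In female sow-fed pool 3, 8 of the 55 genes were at least 2-fold above both other pools of that group, against 0.429% of all named genes (29 of 6765). All 8 were interferon-induced genes: ISG15, ISG12(A), IFIT1, IFI44L, IFIT3, MX1, RSAD2 and GBP1. In each of the other 17 pools, between 0 and 3 of the 55 genes stood that far above the rest of their group. The share of all named genes in those pools lay between 0.0296% and 1.23%. Female soy formula pool 1 had 3 (ISG15, ISG12(A) and GBP1), against 0.103% of named genes. Female milk formula pool 1 had 2 (ISG15 and ISG12(A)), against 0.192%. This criterion and the genes described from it were chosen after the values were seen, and no test was made of it.

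ISG15, a ubiquitin-like protein that is attached to other proteins during the antiviral response, showed the widest gap. Its ratio was 15.3 in female sow-fed pool 3, against 1.43 and 1.45 in the other 2 sow-fed female pools. That was 10.6-fold over the higher of the other pools, the first rank among the 6765 named genes. The female milk formula pools were at 3.80, 1.77 and 1.12, and the female soy formula pools at 2.5, 0.686 and 0.598. The first milk formula pool and the first soy formula pool were thus also the high pools of their groups, and each was at least 2-fold above its group mates. In males ISG15 was at 1.94, 0.436 and 1.56 with sow milk, at 0.548, 0.804 and 0.812 with milk formula, and at 0.697, 0.595 and 0.875 with soy formula. The male sow-fed group spanned all the male formula pools.

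ISG12(A), a small membrane protein gene strongly induced by type I interferon, took the second rank. Its ratio was 8.28 in female sow-fed pool 3 against 0.791 and 0.708 in its group mates, a 10.5-fold gap over the higher of them. The female milk formula pools were at 2.42, 1.16 and 1.14 and the female soy formula pools at 1.66, 0.507 and 0.369. The same first milk formula pool and first soy formula pool were high here as for ISG15. In males the sow-fed pools were at 1.54, 0.431 and 2.89, and the formula pools lay between 0.638 and 1.37. Male sow-fed pool 2 was at least 2-fold below both other pools of its group for ISG15 and for ISG12(A).

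**Figure D1:**
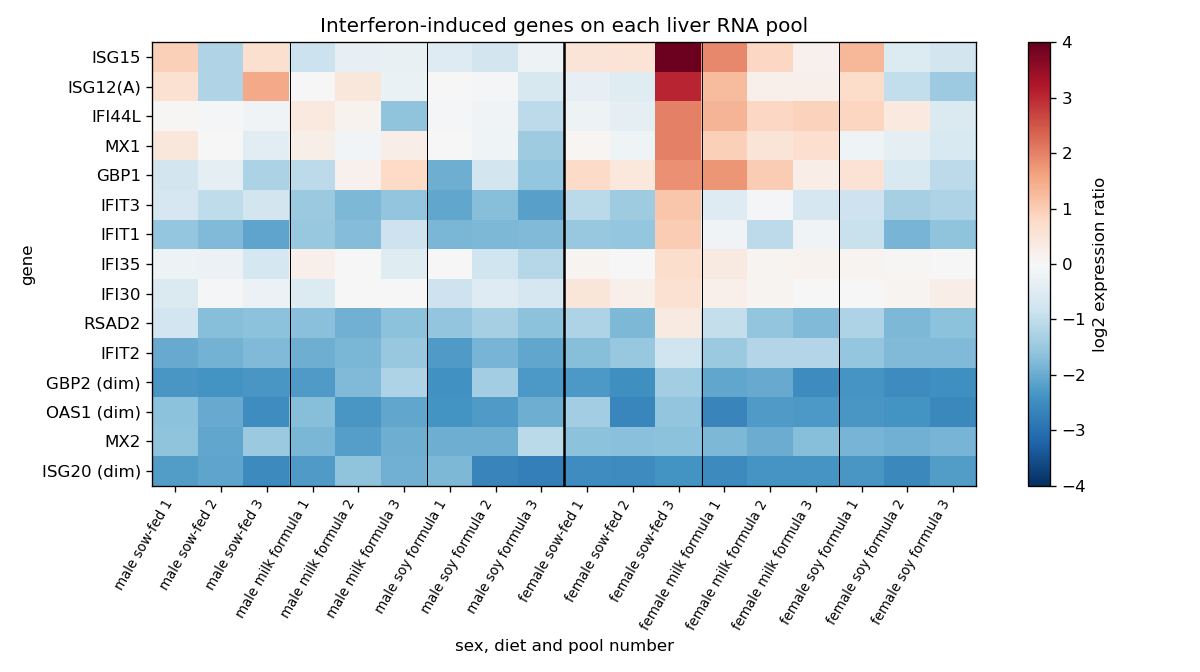
Heat map of the log2 expression ratio of the 15 interferon-induced genes (rows) on each of the 18 liver RNA pools (columns), ordered by their value in female sow-fed pool 3, with dim probe sets marked. Female sow-fed pool 3 is the darkest column, led by ISG15 at a ratio of 15.3, while the lowest rows (MX2, OAS1 and ISG20) show no such step.

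The IFIT genes encode proteins that bind viral RNA. IFIT1 was at 2.02 in female sow-fed pool 3 against 0.347 and 0.339, a 5.81-fold gap, and a second, dim IFIT1 probe set was at 1.32 against 0.218 and 0.210. The third IFIT1 probe set, also dim, was at 0.201 against 0.182 and 0.188. IFIT3 was at 2.16 against 0.478 and 0.375, a 4.52-fold gap, and IFIT2 at 0.578 against 0.309 and 0.347. The IFIT genes are close relatives, so their probe sets may share signal.

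IFI44L, an interferon-induced gene named for its likeness to IFI44, was at 4.06 against 0.863 and 0.776. Its second probe set was at 1.97 against 0.538 and 0.431, while the third, dim one was at 0.165 against 0.147 and 0.133. The brighter probe sets of IFI44L and IFIT1 thus gave the same order of pools. MX1, a dynamin-like GTPase that blocks influenza and other viruses, was at 4.02 against 1.06 and 0.884, a 3.81-fold gap. RSAD2, which encodes the antiviral enzyme viperin, was at 1.29 against 0.425 and 0.290. The 3 RSAD2 probe sets among the array's control features did not show a step of this size, with 0.216, 0.649 and 0.178 in that pool against at most 0.163, 0.588 and 0.166 in its group mates. GBP1, a guanylate-binding protein that acts on intracellular microbes, was at 3.56 against 1.69 and 1.33. Its other 2 probe sets, neither of them dim, did not reach a 2-fold gap, at 1.33 against 0.738 and 0.388 and at 0.664 against 0.607 and 0.466.

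The remaining interferon-induced genes did not reach a 2-fold gap in that pool. MX2 was at 0.319 in female sow-fed pool 3 against 0.321 and 0.314, and OAS1, a dim sensor of double-stranded RNA, was at 0.337 against 0.383 and 0.165. IFI35 was at 1.64 against 1.08 and 1.01, and IFI30, a lysosomal thiol reductase, at 1.52 against 1.41 and 1.16.

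The signalling genes upstream showed no 2-fold gap in that pool. STAT2 was at 1.5 in female sow-fed pool 3 against 1.64 and 1.40 in its group mates. The interferon genes IFNA1, IFNB1, IFNG and IFN-DELTA-1 were dim, so their levels are not informative, and the receptor IFNAR1 was at 0.992 against 1.18 and 1.10. IRF9, a DNA-binding partner of STAT2, was at 1.28 against 0.805 and 0.634, and IRF1 at 2.79 against 1.82 and 1.30. Both IRF genes were highest in that pool without reaching the 2-fold gap.

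Interferon response genes whose symbols lay outside the selection stood high in the same pool. Of 24 measured from a list of 48, 20 were above both other sow-fed female pools, and 6 were at least 2-fold above both: USP18, DDX58, EIF2AK2, PARP9, XAF1 and TNFSF10. USP18, which removes ISG15 from proteins, was at 1.21 against 0.370 and 0.298. Their summed ratio was 29.4 in that pool against 19.1 and 17.6. Of 23 measured JAK-STAT receptors and regulators, 9 were above both and 0 by 2-fold. Of 27 measured Toll-like receptor and NF-kappaB genes, 11 were above both, and the immediate early gene FOS (14.3 against 1.41 and 1.14) and the chemokine CCL2 (1.62 against 0.735 and 0.440) were at least 2-fold above both. EGR1, another immediate early gene, was at 7.62 against 1.06 and 0.451. Ranked by this gap, between 2064 and 2296 of the 6765 named genes were above both pools, and 0.429% by at least 2-fold. The 20 of 24 lay well above that share, and the 9 of 23 and 11 of 27 nearer to it. Of the T cell markers 0 of 9 were above both pools, and of the macrophage markers 3 of 7 were, 0 of them by 2-fold. The part of these features in the high interferon-induced genes was not tested.

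The female interferon-induced genes also varied more between pools of one group than other genes did. Their median SD within a group was 0.712 on the log2 scale in females, against 0.149 over all named genes. The corresponding values in males were 0.377 and 0.343. Without female sow-fed pool 3, an alternative chosen after seeing the data, the female median was 0.287, against 0.147 over all named genes. The IRF genes, the next widest role, were at 0.254 with that pool and 0.234 without it. The interferon-induced genes were the role with the widest female spread both ways, as a description of these pools.

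In milk formula against sow milk over both sexes, 0 of the 55 genes rose and 0 fell at an adjusted p under 0.05 in limma, with 0 and 2 at an unadjusted p under 0.05. Over all named genes 0.887% rose and 0.606% fell, and 7.41% and 5.4% were higher and lower at an unadjusted p under 0.05. The members' median log2 difference was 0.04, against 0.02 over all named genes. The widest differences among them were -0.66 for ISG15 and 0.39 for GBP1. None of the 55 genes passed within females either (0 higher and 0 lower in limma, against 0.636% and 0.798% of named genes, and 1 and 5 unadjusted, against 7.02% and 8.4%). In males the counts were again 0 and 0 in limma (against 0.192% and 0.0443% of named genes), with 0 and 3 unadjusted (against 4.85% and 2.81%). In neither direction did a gene keep its milk formula pools apart from its sow-fed pools in both sexes (0 of 55, against 1.67% of named genes higher and 1.23% lower).

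Without female sow-fed pool 3 the milk formula values of the interferon-induced genes shifted upward. In females their median log2 difference went from -0.07 with all pools to 0.34 without it. IFIT1 went from 0.24 to 1.10 (SE 0.32, adjusted p = 0.255 in limma) and MX1 from 0.06 to 0.75 (SE 0.16, adjusted p = 0.125). ISG15 turned from -0.69 to 0.45 and ISG12(A) from -0.18 to 0.98. None of these 4 genes passed the threshold in either fit.

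In soy formula against sow milk over both sexes, 0 of the 55 genes rose and 2 fell at an adjusted p under 0.05 in limma, with 3 and 10 at an unadjusted p under 0.05. Over all named genes 2.68% rose and 2.94% fell, and 9.82% and 10.1% were higher and lower unadjusted. The adjusted count of members is near that background. The 2 genes were the kinase JAK1 and the transcription factor IRF8. The members' log2 differences were negative in 41 of 55 genes, with a median of -0.20, against 0.00 over all named genes. By role the median was -0.37 for the interferon-induced genes, -0.27 for the IRF genes, -0.26 for JAK and STAT, -0.12 for Toll-like receptors and MYD88, -0.09 for interferons and receptors, 0.01 for SOCS and 0.05 for the NF-kappaB family. No role had more than 1 gene past the threshold.

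**Figure D2:**
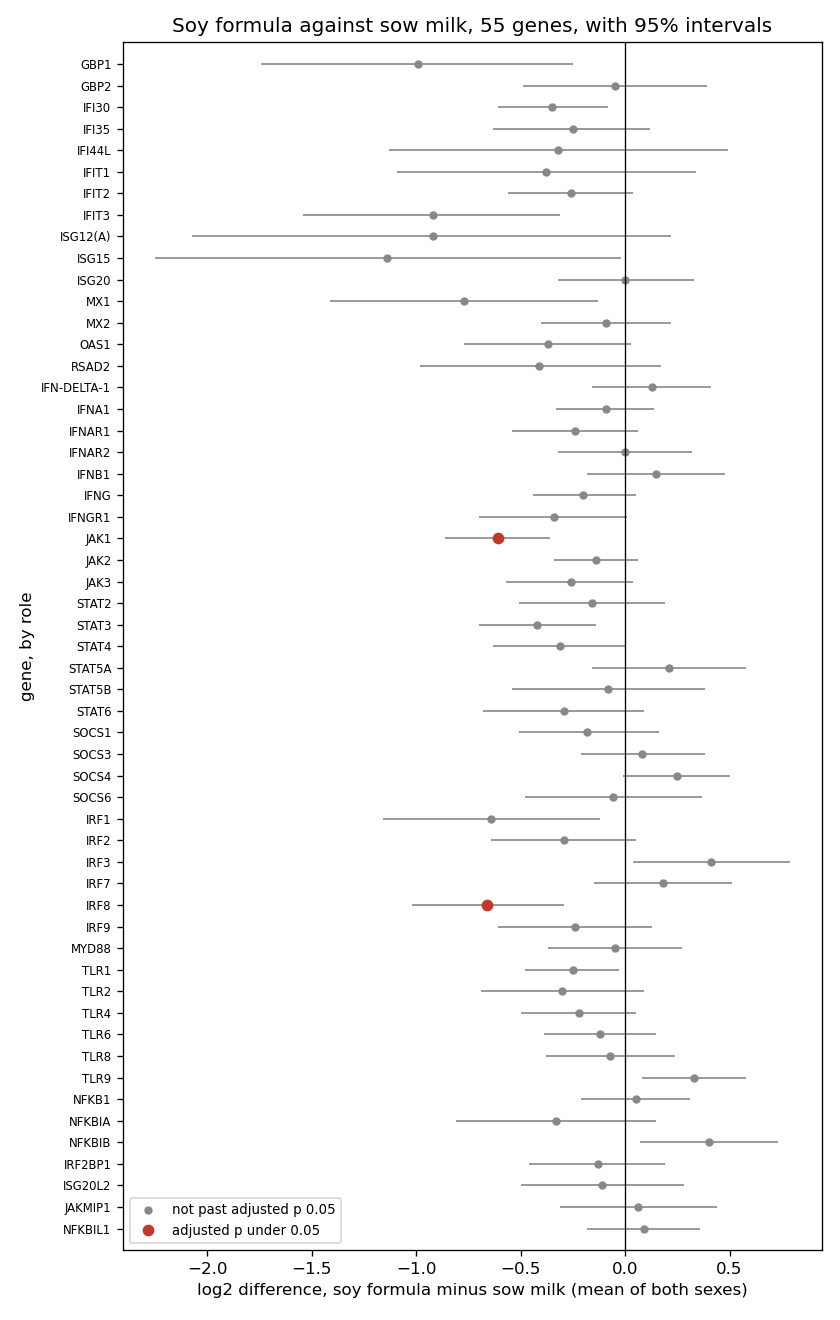
Log2 difference of soy formula minus sow milk (horizontal axis, mean of both sexes) for each of the 55 genes by role (vertical axis), with 95% intervals from limma over 18 arrays. The large red points are JAK1 at -0.61 and IRF8 at -0.66, and the widest intervals belong to ISG15 and ISG12(A).

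JAK1 binds the receptors of interferons and of many interleukins and phosphorylates STAT proteins. In males its ratio was 0.937, 0.845 and 0.843 with sow milk, 0.932, 0.656 and 0.643 with milk formula, and 0.600, 0.391 and 0.542 with soy formula. In females it was 1.52, 1.43 and 1.43 with sow milk, 1.40, 1.41 and 1.33 with milk formula, and 1.10, 1.06 and 1.09 with soy formula. In both sexes every soy formula pool lay below every sow-fed pool and below every milk formula pool. JAK1 was the 1 member of 55 whose pools did not overlap in both sexes between soy formula and sow milk, a pattern found in the lower direction in 2.69% of all named genes. In the higher direction 0 of 55 genes did so, against 2.82% of named genes.

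JAK1 fell by 0.61 on the log2 scale over both sexes (SE 0.12, adjusted p = 0.00605 in limma), which is 1.53-fold. The drop was 0.42 in females (SE 0.07, adjusted p = 0.00887) and in males the difference was -0.80 (SE 0.24, adjusted p = 0.336 in limma). With all 18 arrays in one fit the calls changed places, with the same -0.80 called in males (SE 0.17, adjusted p = 0.0181 in limma) and -0.42 not called in females (SE 0.17, adjusted p = 0.38). That fit shares 1 estimate of spread between the sexes, so it can misstate the error within a sex. The median SD within a group over all named genes was 0.343 in males and 0.149 in females. The interaction of the JAK1 difference with sex was -0.37 (SE 0.24, adjusted p = 0.757 in limma). JAK1 kept its call over both sexes in all 27 alternatives, with adjusted p between 0.00244 and 0.0467. Its second probe set was dim and showed a difference of 0.05 (SE 0.12), and the mean of both probe sets gave -0.28.

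IRF8 is a transcription factor of macrophages, monocytes and dendritic cells. In females it was at 0.648, 0.552 and 0.665 with sow milk, at 0.544, 0.437 and 0.422 with milk formula, and at 0.434, 0.345 and 0.303 with soy formula. In males it was at 0.472, 0.364 and 0.806 with sow milk, at 0.353, 0.347 and 0.551 with milk formula, and at 0.410, 0.328 and 0.351 with soy formula. The female soy formula pools lay below all sow-fed female pools, while the male groups overlapped. IRF8 fell by 0.66 on the log2 scale over both sexes (SE 0.17, adjusted p = 0.0436 in limma) and by 0.80 in females (SE 0.15, adjusted p = 0.0111). In males the difference was -0.52 (SE 0.30, adjusted p = 0.751 in limma). The female call was lost with all 18 arrays in one fit (adjusted p = 0.157). The call over both sexes was lost in 16 of 27 alternatives, and adjusted p lay between 0.0122 and 0.149 over all 27. It was lost when any 1 of 12 pools was left out, namely each female pool other than soy formula pool 1, male sow-fed pools 1 and 3, and male soy formula pools 2 and 3, with log2 differences between -0.70 and -0.50 there.

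Macrophage markers fell in the comparison in which IRF8 was called, and also between the formulas, in which IRF8 was not called. Of 7 measured macrophage and Kupffer cell markers from a list of 11, 0 were dim. In soy formula against sow milk 5 fell (VSIG4, CD5L, C1QC, AIF1 and C1QA), against 2.94% of all named genes. The median log2 difference over the 7 was -0.72. Their summed ratio in females was 10.1 to 11.7 with sow milk, 10 to 12 with milk formula and 5.55 to 7.30 with soy formula. In males it was 5 to 6.71, 5.68 to 7.14 and 3.44 to 4.19 in that order. The soy formula pools lay below the pools of both other diets in each sex. Between the formulas 5 of the 7 markers fell, against 0.828% of named genes. Their median there was -0.83, while IRF8 was at -0.28. With milk formula against sow milk 0 of the 7 were called. Their median there was 0.17, while IRF8 was at -0.38. Endothelial markers fell in 3 of 7 measured genes in soy formula against sow milk, against 2.94% of named genes. Their summed ratio in females was 8.11 to 9.32 with sow milk, 7.48 to 8.46 with milk formula and 5.24 to 6.15 with soy formula. In males it was 4.22 to 5.3, 3.75 to 4.91 and 2.79 to 3.63 in that order. Of the hepatocyte markers 2 of 11 fell with soy formula against sow milk (HP and SERPINA1), with a median of -0.20. Of the dendritic cell markers 0 of 3 were called in that comparison, with a median of -0.18. The T cell, B cell, natural killer cell, neutrophil, erythroid and stellate sets, some with dim probe sets, had no call there either. The part of any marker set in the IRF8 or JAK1 difference was not tested.

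Within females, 0 of the 55 genes rose and 4 fell in soy formula against sow milk in limma against 6.22% and 4.95% of all named genes. At an unadjusted p under 0.05 there were 1 and 15, against 15.4% and 13.9% of named genes. The 4 were JAK1, IRF8, TLR2 and JAK3. TLR2, a receptor for bacterial lipoproteins, was at 0.582, 0.463 and 0.650 with sow milk, at 0.535, 0.461 and 0.545 with milk formula, and at 0.437, 0.377 and 0.322 with soy formula. JAK3, the kinase of the common gamma chain of interleukin receptors, was at 0.336, 0.268 and 0.353 with sow milk, at 0.323, 0.262 and 0.292 with milk formula, and at 0.193, 0.258 and 0.206 with soy formula. In both genes the 3 female soy formula pools lay below the 3 sow-fed pools, with a narrow gap between the nearest pools.

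TLR2 fell by 0.57 on the log2 scale in females (SE 0.15, adjusted p = 0.0425 in limma) and JAK3 by 0.54 (SE 0.14, adjusted p = 0.0454). In males the differences were -0.03 (SE 0.32) for TLR2 and 0.02 (SE 0.25) for JAK3, and the interactions with sex gave adjusted p = 0.775 and 0.67 in limma. TLR2 lost its call without female sow-fed pool 1 or 3, milk formula pool 1, or soy formula pool 2 or 3 (log2 differences between -0.58 and -0.46). JAK3 lost it without female sow-fed pool 1 or 3, milk formula pool 2 or 3, or soy formula pool 1 or 3 (between -0.54 and -0.46).

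In males, 0 of the 55 genes rose and 1 fell in soy formula against sow milk in limma, against 0.266% and 0.222% of all named genes. At an unadjusted p under 0.05 there were 2 and 3, against 4.88% and 5.32%. The gene that fell was IFIT3, at 0.625, 0.493 and 0.597 with sow milk, at 0.359, 0.285 and 0.333 with milk formula, and at 0.237, 0.305 and 0.223 with soy formula. Every male formula pool lay below every male sow-fed pool. IFIT3 fell by 1.17 on the log2 scale (SE 0.22, adjusted p = 0.0467 in limma), which is 2.25-fold. The milk formula difference in males was -0.81 (SE 0.22, adjusted p = 0.392 in limma). The soy formula call was lost when any 1 of the 9 male pools was left out, with differences between -1.31 and -1.08 and adjusted p between 0.0529 and 0.2.

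In females IFIT3 did not follow that order. The sow-fed pools were at 0.478, 0.375 and 2.16, the milk formula pools at 0.694, 0.959 and 0.633, and the soy formula pools at 0.568, 0.396 and 0.423. The soy formula difference in females was -0.68 (SE 0.52) with all pools and 0.11 (SE 0.21) without female sow-fed pool 3. Over both sexes it was -0.92 (SE 0.29, adjusted p = 0.106 in limma) and -0.53 without that pool (SE 0.15, adjusted p = 0.0831). It was called at -1.16 without female sow-fed pool 2 (adjusted p = 0.0281 in limma). With quantile normalization of all arrays it was called at -1.08 (adjusted p = 0.0452 in limma). The interaction with sex was -0.50 (SE 0.59, adjusted p = 0.887 in limma).

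Over both sexes and in females, much of the negative median of the interferon-induced genes against sow milk went with the 1 high pool. Over both sexes the median soy formula difference was -0.37 with all arrays and -0.15 without female sow-fed pool 3, and in females it was -0.58 and -0.08. The count of negative differences over both sexes went from 14 of 15 to 11 of 15. ISG15 went from -1.14 (SE 0.53, adjusted p = 0.335 in limma) to -0.57, ISG12(A) from -0.92 to -0.35 and MX1 from -0.77 to -0.43. IFI44L turned from -0.32 to 0.07 and IFIT1 from -0.38 to 0.05. None of these 5 genes passed the threshold in either fit. The male fit held no female array. In it the median soy formula difference of the interferon-induced genes was -0.28, with 12 of 15 negative and 1 (IFIT3) called. The median over all named genes was 0.0 there.

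**Figure D3:**
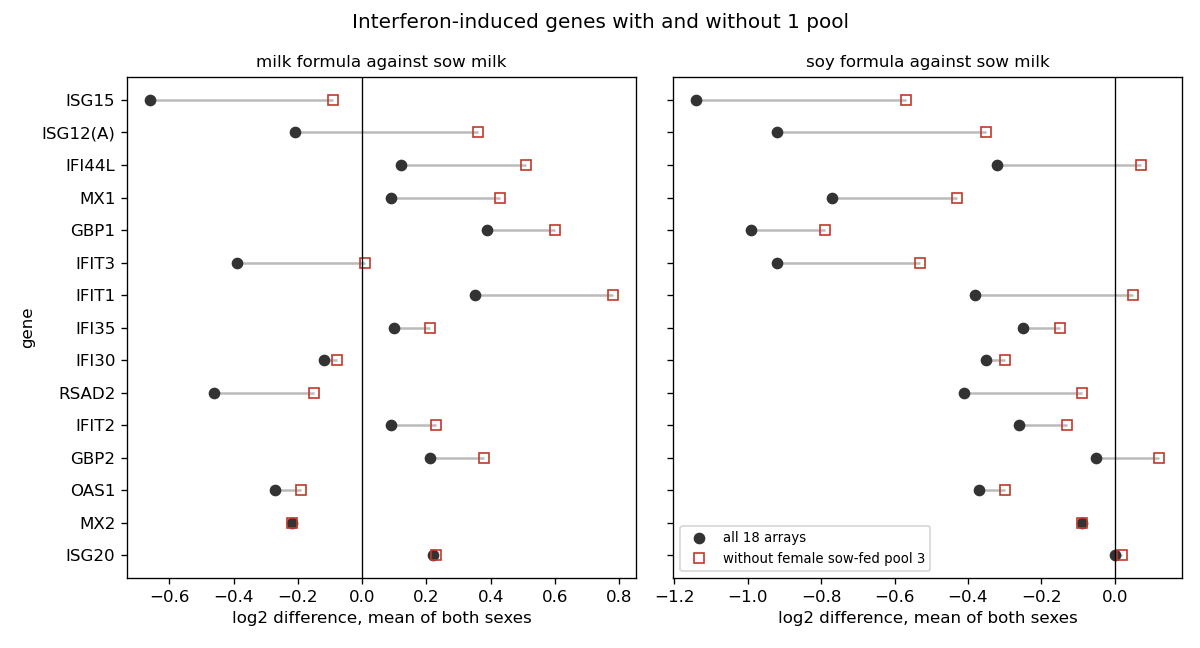
Log2 differences of the 15 interferon-induced genes for milk formula (left) and soy formula (right) against sow milk, mean of both sexes, with all 18 arrays (filled circles) and without female sow-fed pool 3 (open squares). Most squares lie to the right of their circles, as for ISG15 in the soy formula panel at -1.14 with all arrays and -0.57 without the pool, while MX2 and ISG20 hardly move.

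In soy formula against milk formula over both sexes, which does not use the sow-fed means, 0 of the 55 genes rose and 0 fell at an adjusted p under 0.05 in limma, with 1 and 12 at an unadjusted p under 0.05. Over all named genes 0.443% rose and 0.828% fell, and 5.93% and 8.14% were higher and lower unadjusted. The median was -0.19 over the 55 genes against -0.01 over all named genes, and 42 of 55 differences were negative. The interferon-induced genes had a median of -0.35, with 13 of 15 negative. JAK1 and STAT3 were the 2 members whose soy formula pools all lay below the milk formula pools in both sexes, a pattern shown by 1.82% of named genes, and 0 of 55 showed the opposite order, against 0.99%. This comparison shares the soy formula arrays with the comparison against sow milk.

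GBP1 showed the widest difference between the formulas. In males it was at 0.489, 1.12 and 1.75 with milk formula and at 0.260, 0.598 and 0.341 with soy formula. In females it was at 3.37, 2.03 and 1.19 with milk formula and at 1.48, 0.658 and 0.484 with soy formula. The formula groups overlapped in both sexes. The difference was -1.38 (SE 0.36, adjusted p = 0.0829 in limma), a ratio of 2.61-fold. The other 2 GBP1 probe sets gave -0.52 (SE 0.17, adjusted p = 0.187) and -1.04 (SE 0.25, adjusted p = 0.0596). GBP1 passed the threshold in 4 of 27 alternatives, among them the fits without female soy formula pool 1 (-1.61, adjusted p = 0.0442) and without male milk formula pool 1 (-1.64, adjusted p = 0.0293).

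STAT3, which carries interleukin-6 signals to the acute phase genes of the liver, was at 0.829, 0.935 and 0.672 in males with milk formula and at 0.643, 0.608 and 0.592 with soy formula. In females it was at 1.81, 1.69 and 1.5 with milk formula and at 1.46, 1.17 and 0.988 with soy formula. The gap between the nearest pools was narrow in both sexes. The difference was -0.43 (SE 0.13, adjusted p = 0.165 in limma), and against sow milk it was -0.42 (SE 0.13, adjusted p = 0.108). IRF1, an activator of interferon genes, was at 2.58, 2.36 and 1.32 in females with milk formula and at 1.24, 0.955 and 1.27 with soy formula. In males IRF1 was at 0.474, 0.560 and 1.04 with milk formula and at 0.311, 0.274 and 0.607 with soy formula. Its difference was -0.81 (SE 0.25, adjusted p = 0.165 in limma).

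**Figure D4:**
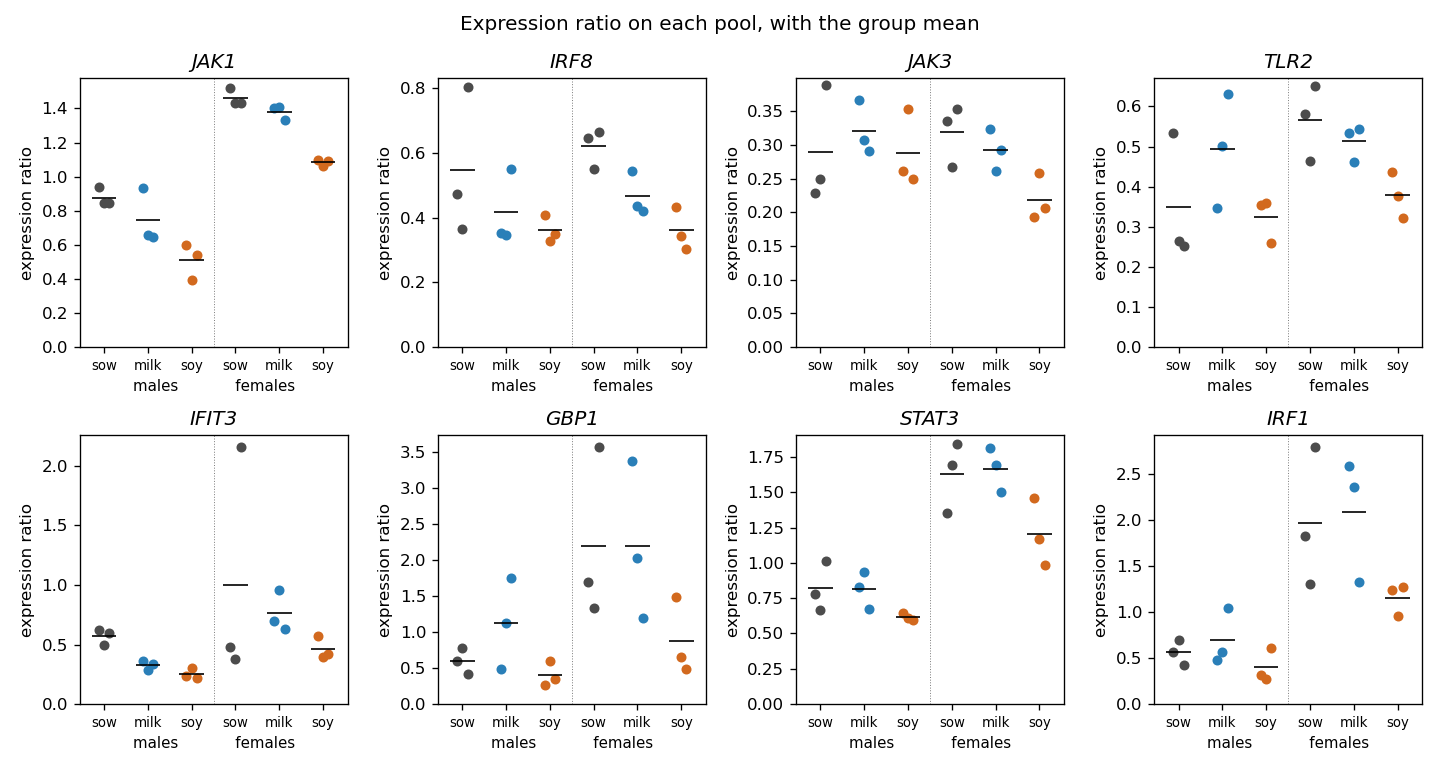
Expression ratio of 8 genes (vertical axes, from 0) on each pool, by sex and diet; points are pools and bars are group means of 3 pools. JAK1 shows soy formula pools below the pools of both other diets in each sex, and IFIT3 shows 1 female sow-fed pool at 2.16 far above the rest.

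Within females, 0 of the 55 genes rose and 1 fell in soy formula against milk formula in limma, against 2.32% and 1.35% of named genes. At an unadjusted p under 0.05 there were 2 and 11, against 12.7% and 9.31%. The gene that fell was JAK1, which fell by 0.35 on the log2 scale (SE 0.07, adjusted p = 0.043 in limma). The call was lost when any 1 of the 9 female pools was left out, with differences between -0.37 and -0.33 and a lowest adjusted p of 0.0524. MX1 had a difference of -1.08 here (SE 0.45, adjusted p = 0.271 in limma). With female sow-fed pool 3 left out, whose value enters this comparison only through the estimate of spread, the difference stayed -1.08 and the SE was 0.15 (adjusted p = 0.0125). The MX1 pools were at 1.92, 1.42 and 1.58 with milk formula and at 0.887, 0.776 and 0.661 with soy formula and did not overlap. In males, 0 genes rose and 0 fell in limma, as in 0.0% and 0.0% of named genes, with 1 and 3 unadjusted, against 2.22% and 5.34%. The male MX1 difference was -0.64 (SE 0.34).

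A probe set not chosen for TLR4, the lipopolysaccharide receptor, also passed in females between the formulas. It was at 0.440, 0.401 and 0.399 with milk formula and at 0.315, 0.254 and 0.231 with soy formula, and fell by 0.64 on the log2 scale (SE 0.12, adjusted p = 0.0232 in limma). The chosen TLR4 probe set was at 0.471, 0.490 and 0.463 against 0.439, 0.360 and 0.317 and did not pass. TLR4 had 5 probe sets on the array, and they differed in size of change.

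The interactions of sex with diet gave 0 calls among the 55 genes in limma for each of the 3 diet pairs. At an unadjusted p under 0.05 there were 3 higher and 2 lower for milk formula against sow milk, 2 and 1 for soy formula against sow milk, and 2 and 2 between the formulas. Over all named genes the shares called were 0.0% and 0.0148%, 0.0% and 0.0148%, and 0.0% and 0.0%. The unadjusted shares of named genes were 4.18% and 2.11%, 3.64% and 5.01%, and 2.69% and 5.82%. A difference between the sexes was thus not shown for any of the 55 genes, and its absence is not shown either.

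Ranges follow for the interferons and their receptors, the SOCS genes and the NF-kappaB family. Among the 7 interferons and receptors, of which 4 were dim, soy formula against sow milk ranged from -0.34 (IFNGR1, the interferon gamma receptor) to 0.15 (IFNB1). The 4 SOCS genes, of which 3 were dim, ranged from -0.18 (SOCS1) to 0.25 (SOCS4). Among the 3 NF-kappaB family genes the range was -0.33 for NFKBIA to 0.40 for NFKBIB, both inhibitors of NF-kappaB. None of these 14 genes passed in soy formula against sow milk in the fit over both sexes. IFNGR1 was called at -0.52 without male sow-fed pool 3 (adjusted p = 0.0385 in limma). NFKBIB was called at 0.54 without male soy formula pool 2 (adjusted p = 0.0303 in limma). MYD88 had a difference of -0.05 (SE 0.15) and the 4 genes matched by their letters alone lay between -0.13 and 0.09.

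Levels by sex are a description. All 9 female arrays lay above all 9 male arrays for JAK1, STAT5B, IRF2 and NFKBIA (4 of 55), a pattern found in 27.1% of named genes. All male arrays lay above all female arrays for MYD88 and NFKB1 (2 of 55), against 2.29% of named genes. MYD88 was between 0.617 and 1.21 on the male arrays and between 0.407 and 0.573 on the female arrays. A sex difference in these levels cannot be told apart from the differences between the arrays of the sexes given above.

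Other genes of these pathways, taken from lists, were tested in the same fits in limma. Among 24 measured interferon response genes outside the selection, 1 rose with milk formula against sow milk over both sexes, where 0.887% of named genes rose: B2M, the light chain of MHC class I, by 1.37 (SE 0.30, adjusted p = 0.0367). With soy formula against sow milk 1 fell, where 2.94% of named genes fell: the chemokine CXCL9, by 0.84 (SE 0.21, adjusted p = 0.0339 in limma). CXCL9 was at 1.10 in female sow-fed pool 3 against 0.678 and 0.563 in its group mates. Its difference without that pool is not given here.

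Among 23 measured JAK-STAT receptors and regulators, 1 fell with soy formula against sow milk over both sexes, where 2.94% of named genes fell. It was PIAS1, an inhibitor of activated STAT proteins, which fell by 0.73 (SE 0.12, adjusted p = 0.00149 in limma). In females 7 of the 23 fell: IL10RB, IL2RG, IGFALS, IL13RA1, PTPN2, PIAS1 and IL4R, with log2 differences between -0.70 and -0.38, while 4.95% of all named genes fell in that comparison. IL2RG is the common gamma chain that JAK3 binds, and IGFALS is a growth hormone target of the liver. Among 27 measured Toll-like receptor and NF-kappaB genes, LBP, which hands lipopolysaccharide to CD14, fell with milk formula by 0.96 (SE 0.18, adjusted p = 0.0137 in limma) and with soy formula by 0.92 (SE 0.18, adjusted p = 0.0068), each against sow milk. The adhesion molecule ICAM1 fell with soy formula by 0.99 against sow milk (SE 0.18, adjusted p = 0.00331 in limma) and by 1.07 against milk formula (SE 0.18, adjusted p = 0.00662). Both LBP values share the sow-fed arrays. Within females, IGFALS also fell with milk formula against sow milk (by 0.60, SE 0.11, adjusted p = 0.0411 in limma). CXCL9 fell in females with soy formula against sow milk by 1.44, again with female sow-fed pool 3 included. LY96, the partner of TLR4, fell in females between the formulas by 0.45.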

How the data were processed

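Liver RNA of piglets was measured on Affymetrix porcine arrays, 18 arrays in 6 groups of 3 pools. The deposited values were linear expression ratios, and the submitters' processing notes name GCOS and RMA without their order or role. What each ratio was taken against is not given in the sources used here: across the 18 arrays the median ratio was 1, within 0.002, for 5271 of 24123 probe sets (15 of the 55 genes) and higher for 0. No genome build, depth or detection call was used.

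The log2 of each ratio was taken, and 188 control probe sets were set aside, leaving 23935. Probe sets were named through the platform annotation: 10069 had 1 gene symbol, 198 several and 13668 none. All 55 genes matched the gene reference by gene ID with the same symbol. A probe set counted as dim below a mean ratio of 0.246. limma 3.58.1 (R 4.3.3) was fitted with 1 mean per group, over all 18 arrays for both sexes (mean of the 2 within-sex differences) and for interactions, and over the 9 arrays of a sex within sexes. The p-values were adjusted by Benjamini-Hochberg over 23935 probe sets, with a threshold of 0.05. The script was tested on simulated arrays with independent normal noise and no outlying pool. That test checked the code and does not bear on the calls made here. Intervals are 95% intervals from the fit, whose precision rests on how few arrays a group has.

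Values per array are given for genes past the threshold in any comparison, then for those with the smallest adjusted p until 8 genes were reached. ISG15, ISG12(A), IFIT1, IFI44L, MX1, RSAD2 and other genes of female sow-fed pool 3 were named after their values were seen. The genes, lists and tests were chosen with earlier results of these data known. Alternatives were quantile normalization, median centring, array weights by sex, a replicate block, trended or robust variances, the diets compared alone, all arrays in one fit, no dim probe sets, the mean of a gene's probe sets, and each pool left out in turn. No pairing by pool number was seen over all probe sets. The correlation of deviations between same-numbered pools had a median of -0.00839 over 18 pairs (-0.125 to 0.177). Between pools of different number the median was 0.00794 over 36 pairs. This check cannot exclude a link between pools that touches few genes. Promoter and protein sequences were not used here.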

Additional observations from a re-analysis of the deposited data

How the results depend on the processing

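The counts of the 55 genes called stayed at 0 in every alternative run for milk formula against sow milk over both sexes and in males, for soy formula against milk formula in males, and for the 3 interactions. For soy formula against sow milk over both sexes the count was 2. It was 1 with array weights by sex, with only the diets compared and with trended variances. It was 3 with the mean of all probe sets, where NFKBIB also rose by 0.32. With quantile normalization the genes called were JAK1 and IFIT3, and IRF8 was not called. Leaving out 1 pool gave 1 to 2, and in some of these fits IFIT3, IFNGR1, NFKBIB or TLR9 was called in place of IRF8. Between the formulas over both sexes the count was 0, became 2 with the mean of all probe sets (GBP1 and TLR4) and 1 without the dimmest 40% (GBP1), and was 0 to 1 with 1 pool left out. In females, fitting all 18 arrays gave 0 for soy formula against sow milk in place of 4 and 0 between the formulas in place of 1. Leaving out 1 pool gave 2 to 5 and 0 to 1, and 0 to 1 for milk formula against sow milk, where OAS1 fell without female sow-fed pool 2. In males the 1 call of soy formula against sow milk (IFIT3) became 0 with any 1 pool left out, while fitting all 18 arrays gave 1, a different gene (JAK1).

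With the replicate block, which the pairing check did not support, the counts were 2 for soy formula against sow milk over both sexes, 3 in females and 0 in males, and 0 between the formulas in females. Among named genes in milk formula against sow milk over both sexes, the sign turned when 1 pool was left out for JAK3 (0.03, range -0.04 to 0.15), STAT3 (0.02, range -0.05 to 0.10), IFIT3 (-0.39, range -0.62 to 0.01, the latter without female sow-fed pool 3) and IRF1 (0.17, range 0.00 to 0.32). All of these were far from the threshold. Quantile normalization and median centring moved the median of all named genes by at most 0.01. Dim probe sets, 15 of the 55 genes, and 3 pools per group limit what could be detected. The promoter motif search was not run.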
